A study of Mus musculus with 16 samples.

Results

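Microexons are the shortest exons that the spliceosome retains. Here they were taken as skipped exons of 27 bases or less in the splicing tables of a study of mouse hearts, chosen by length alone. The 3 tables held 750 such events, which involve 589 exons in 512 genes, out of 57891 splicing events of all 5 types. A read minimum then applied, a mean of 10 junction reads in each group of at least 1 comparison, which 500 events met. These 500 are described here and involve 410 microexons in 363 genes. An event is 1 microexon with 1 pair of flanking exons, so 1 microexon can have several events that share reads.

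The data are RNA sequencing libraries from the left ventricles of 16 Bl6J mice of both sexes, 1 library per mouse. RBM20 was either wild type (WT) or carried P635L on both alleles. Each mouse got 1e12 viral genomes of AAV9 by tail vein when 4 weeks old, and hearts were taken 12 weeks later, at 16 weeks. The virus carried the Tnpo3 cDNA or a control construct (Ctr) in which the CAG promoter drives Cre recombinase and green fluorescent protein, so the control mice were also injected and expressed foreign proteins. Each genotype was split into Ctr and Tnpo3 groups of 4 mice. The splicing tables set P635L Ctr, P635L Tnpo3 and WT Tnpo3 each against the same WT Ctr libraries, so these comparisons share them.

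In most tissues a microexon is too short for the usual exon definition and depends on enhancer proteins bound in the neighbouring introns. Those of a length divisible by 3 add or remove a few amino acids without shifting the reading frame, and many are known from neurons, where the splicing factor Srrm4 promotes their inclusion, and from striated muscle. RBM20 is a splicing factor of muscle that mainly represses exons of sarcomere and calcium-handling transcripts, and its P635L mutation lies in the stretch that serves nuclear import. Tnpo3 encodes an import receptor for proteins rich in serine and arginine.

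The sequences of 7 microexons on which the results turn are printed first. Each is shown with its neighbouring exon ends as spliced. Capitals mark the microexon and lower case the neighbours. Letters come from transcripts of GENCODE M21 (GRCm38), matched by gene, exon length and both intron lengths. Positions are those of the deposited files, whose build is GRCm39 per the submitters' processing notes.
Ryr2, 24 bases: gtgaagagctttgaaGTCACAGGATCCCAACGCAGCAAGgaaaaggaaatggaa
Trdn, 18 bases: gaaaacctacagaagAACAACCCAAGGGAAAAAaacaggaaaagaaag
Pdlim5, 15 bases: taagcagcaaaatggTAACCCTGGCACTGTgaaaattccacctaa
Ldb3, 15 bases: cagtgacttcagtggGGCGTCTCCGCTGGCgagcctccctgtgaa
Tnnt2, 9 bases: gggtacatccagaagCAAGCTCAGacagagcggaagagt
Tnnt2, 12 bases: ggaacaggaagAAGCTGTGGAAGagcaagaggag
Myl6, 20 bases: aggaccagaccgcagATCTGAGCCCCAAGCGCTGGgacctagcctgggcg

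The first 6 lie in coding sequence of the matched transcript and have a length divisible by 3. The Ryr2 microexon is at chr13:11649193-11649216 on the minus strand and the Trdn microexon at chr10:33209228-33209245 on the plus strand. The Pdlim5 microexon is at chr3:142012045-142012059 and the Ldb3 microexon at chr14:34291670-34291684, both on the minus strand. Those of Tnnt2 are at chr1:135778117-135778125 and chr1:135769753-135769764 on the plus strand. The Myl6 microexon, at chr10:128329203-128329222 on the minus strand, is not a multiple of 3 bases, and the only annotated transcript that matched it has no coding sequence.

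The microexons ran from 3 to 27 bases with a median of 21. Of the 410, 275 had a length divisible by 3, which is 67.1% (95% Clopper-Pearson interval 62.3% to 71.6%, counting error only). Among 27112 longer skipped exons with the same read minimum the share was 40.0%. The count peaked at 27, 24 and 21 bases with 56, 51 and 44 microexons, while 20 and 19 bases had 12 and 10. Just inside the length limit, 90 exons measured 25 to 27 bases, and just outside it 119 measured 28 to 30 bases, of which 64.7% were divisible by 3. Trdn held 5 of the reported microexons, Clasp2 held 4, and Ryr2, Tnnt2, Pdlim5, Clasp1, Ptk2 and Dctn1 were among the genes with 3. A transcript of the supplied annotation matched 387 of the 410, and 335 of those lay inside coding sequence.

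**Figure D1:**
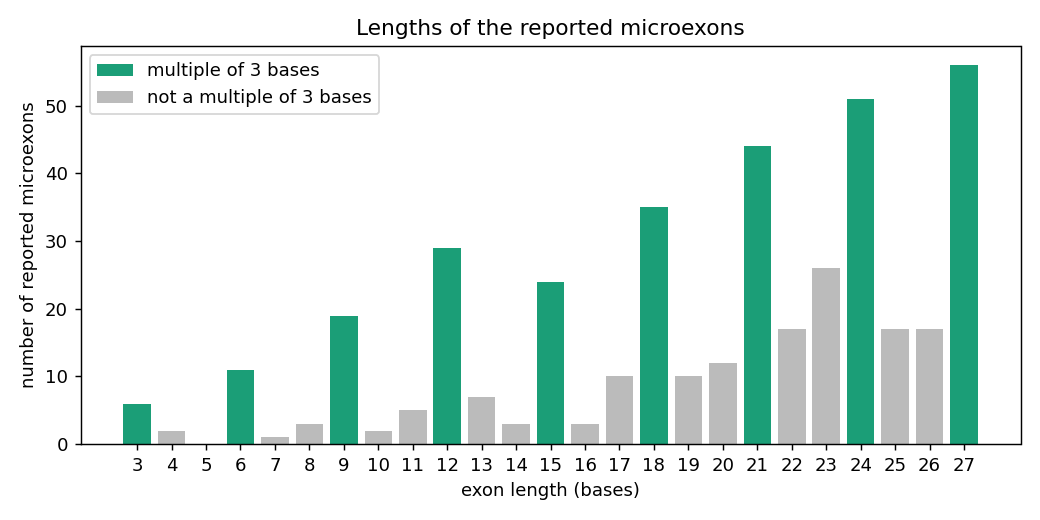
Number of reported microexons (vertical axis) at each exon length in bases (horizontal axis), with lengths divisible by 3 in green and the others in grey. Bars at lengths divisible by 3 stand above their neighbours, up to 56 microexons at 27 bases.

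Inclusion level is the share of transcripts that keep the exon, estimated from reads across exon junctions, and runs from 0 to 1. In the table of P635L Ctr against WT Ctr, 410 microexon events met the read minimum. They cover 346 microexons, so these 410 events are not the 410 microexons above. Their median inclusion level was 0.856 in WT Ctr, against 0.991 for the 23682 longer skipped exon events. A mean level above 0.1 and below 0.9 was seen for 31.2% of the microexon events and 14.7% of the longer ones in WT Ctr. Taking 1 event per microexon, the one with most reads, the 275 divisible by 3 had a median of 0.591 in WT Ctr, and the other 135 had a median of 0.990. Of the 275, 95 were at 0.9 or more, 99 were between and 81 were at 0.1 or less. Of the 135, 92 were at 0.9 or more, 16 between and 27 at 0.1 or less. The lower inclusion of microexons divisible by 3 was seen in all 4 groups, with medians of 0.535 to 0.591 against 0.983 to 0.990. These are descriptions, since microexons of 1 gene share its reads.

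**Figure D2:**
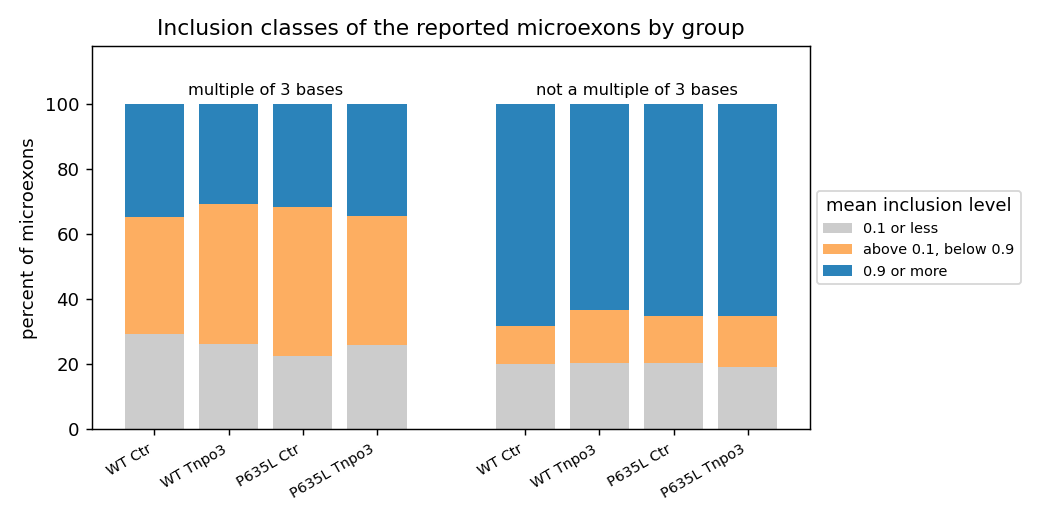
Percent of the reported microexons (vertical axis) in 3 classes of mean inclusion level, by group, for lengths divisible by 3 (left) and not (right). Intermediate levels take 36% to 45.9% of the left bars and 11.9% to 16.1% of the right bars. A microexon enters a group's bar only where a table holds it there.

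Library totals in the gene table ran from 28493249 to 85922669 counts. The gene ENSMUSG00000119584 held 19.96% to 22.65% of the counts in 2 WT Ctr libraries and 1 WT Tnpo3 library, and 0.703% to 5.3% in the others. The splicing tables do not say which listed library is which mouse, so results are given with each listed library left out in turn. CPM values are counts scaled to edgeR's TMM-normalized library size, not to the library total alone. Tnpo3 averaged 44.8 ± 3.29 (WT) and 44.5 ± 2.72 (P635L) CPM under the control virus (SD, n = 4). Under the Tnpo3 virus it averaged 320 ± 126 (WT) and 464 ± 214 (P635L) CPM (SD, n = 4). Rbm20 itself was at 224 to 245 CPM on average in all 4 groups. Markers of heart muscle cells summed to 53678 to 58008 CPM in P635L Ctr, 58896 to 68750 CPM in P635L Tnpo3 and 75792 to 93001 CPM in WT Ctr, so every mutant library lay below every WT Ctr library. WT Tnpo3, at 67894 to 87126 CPM, overlapped P635L Tnpo3. Markers of fibroblasts summed to 1182 to 1771 CPM in P635L Ctr against 671 to 1050 CPM in WT Ctr. They summed to 751 to 882 CPM in WT Tnpo3 and 793 to 1109 CPM in P635L Tnpo3. All 5 fibroblast markers and 4 of 7 muscle markers passed the edgeR gene test between P635L Ctr and WT Ctr. The muscle markers changed unevenly between P635L Ctr and WT Ctr, from a log2 change of -1.39 in Myl3 to -0.209 in Pln. In ventricle tissue, fewer cells of a type, less RNA per cell and changed expression of the marker genes themselves cannot be told apart.

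The comparison of P635L Ctr with WT Ctr shows what the mutation changes under the control virus. Of 410 microexon events, 4 were called by edgeR's quasi-likelihood test on junction reads (adjusted p under 0.05 and an inclusion difference of at least 0.1), while 0.161% of all 34810 events tested were called. Inclusion rose in Ryr2 and Myl6 and fell in Trdn and Pdlim5. By the authors' deposited rMATS FDR with the same minimum difference, 19 microexon events passed, 10 higher and 9 lower, beside 2.5% of all events, and the 4 were among the 19. Of the 410 events, 50 differed by at least 0.1, 28 upward and 22 downward, which is 12.2% against 8.03% of all events. The median difference was 0.0005 for microexon events and -0.0005 for all events. With only skipped exon events in the fit, the Ryr2 event alone was still called.

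The microexons divisible by 3 held most of the differences of at least 0.1 between P635L Ctr and WT Ctr. Of their 263 events 42 differed by that much, 24 upward and 18 downward, and 3 were called. Of the 147 events of other lengths 8 differed by that much, and 1 was called, that of Myl6. The median size of the difference was 0.0243 in the first set and 0.00825 in the second. The first set also had more microexons at intermediate inclusion levels, where a difference of 0.1 has more room, and the part of that in the counts was not tested. In WT Tnpo3 against WT Ctr, where edgeR called 0 events, the counts past 0.1 were 30 of 251 and 5 of 134.

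Ryr2 encodes the calcium release channel of the sarcoplasmic reticulum in heart muscle cells. Inclusion of its 24-base microexon was 0, 0.006, 0.008 and 0.02 in the WT Ctr libraries. In P635L Ctr it was 0.226, 0.179, 0.181 and 0.223. The P635L Ctr libraries all lay above every WT Ctr library. The microexon had 17 inclusion reads against 1227 skipping reads over the 4 WT Ctr libraries, and 350 against 1187 in P635L Ctr. Mean inclusion was 0.202 ± 0.0257 (SD, n = 4) against 0.0085 ± 0.00839, a difference of 0.194 (edgeR adjusted p = 8.69e-07, exact permutation p = 0.0286, the smallest that 4 against 4 allows). The call held in all 8 fits that left out 1 listed library.

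In the Tnpo3-treated mutants the Ryr2 microexon stood at 0.027, 0.033, 0.027 and 0.1, between the other mutants and WT Ctr. In WT Tnpo3 it stood at 0, 0.01, 0.012 and 0.024, which overlaps WT Ctr. P635L Tnpo3 was lower than P635L Ctr by 0.155 with no overlap (exact permutation p = 0.0286), but edgeR did not call it after adjustment over all events (unadjusted p = 1.28e-04, adjusted p = 0.139). Without the P635L Tnpo3 library at 0.1 the difference was -0.173 and edgeR's adjusted p was 0.0446. Ryr2 expression averaged 591 ± 112 CPM in P635L Ctr, beside 836 ± 269 for WT Ctr (SD, n = 4), which did not pass the edgeR gene test (adjusted p = 0.14). The 21-base microexon of Ryr2 was at 0.943 to 0.988 on average in all 4 groups and was not called.

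**Figure D3:**
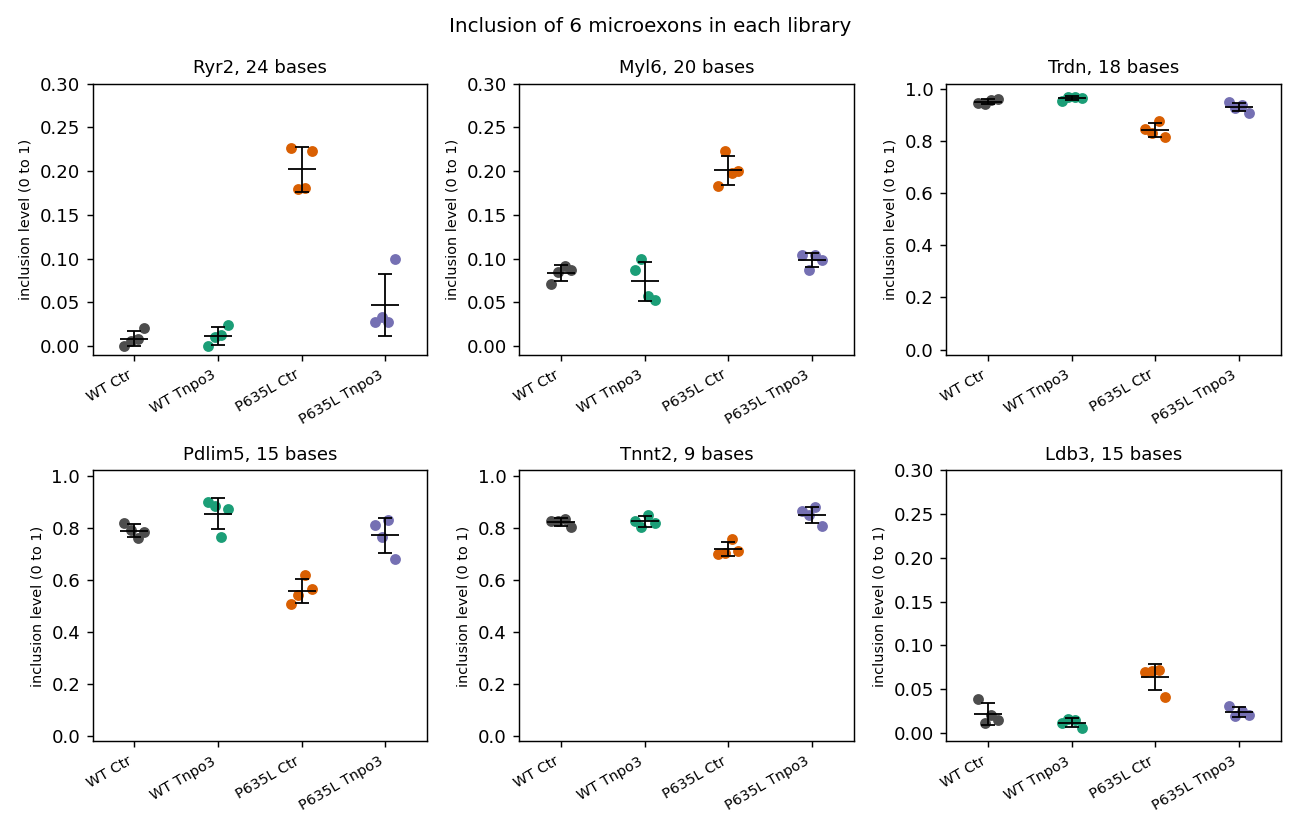
Inclusion level (vertical axis, 0 to 1 or, for Ryr2, Myl6 and the Ldb3 microexon, a scale up to 0.3) of 6 microexons in each library, by group. Points are libraries and bars the mean ± SD of 4. In the panels of Ryr2 and Myl6 the 4 P635L Ctr libraries lie above the other 12, and in those of Trdn, Pdlim5 and Tnnt2 they lie below them.

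Trdn encodes triadin, which anchors calcium-binding proteins to the calcium release channel. Its 18-base microexon was included at 0.944, 0.942, 0.957 and 0.96 in WT Ctr and at 0.845, 0.831, 0.876 and 0.814 in P635L Ctr. All P635L Ctr libraries were below all WT Ctr libraries. The mean fell from 0.951 ± 0.00907 to 0.842 ± 0.0263 (SD, n = 4; edgeR adjusted p = 0.00265). In P635L Tnpo3 it was 0.948, 0.928, 0.937 and 0.909, which overlaps WT Ctr and lies above every P635L Ctr library. The difference between the mutant groups was 0.089 (edgeR unadjusted p = 4.11e-04, adjusted p = 0.241, exact permutation p = 0.0286). Trdn expression also fell in P635L Ctr, to 404 ± 33.9 CPM from 634 ± 58 CPM (log2 change -0.65 ± 0.12 SE, edgeR adjusted p = 7.8e-04), and was higher in P635L Tnpo3 than in P635L Ctr by 0.56 ± 0.12 (adjusted p = 0.01). The other 4 Trdn microexons, of 24 or 27 bases, had mean levels of 0.977 or more in each group that measured them in their most-read event. A less-read event of the 27-base one at chr10:33314788-33314814, spliced to another upstream exon, had means of 0.907 ± 0.0728 in P635L Ctr and 0.773 ± 0.128 in WT Ctr (SD, n = 4). It passed the rMATS rule (FDR 0.0401 in the authors' deposited table), in the upward direction, and edgeR did not call it. A second event of the 18-base microexon, spliced to another downstream exon, averaged 0.938 ± 0.0327 in P635L Ctr and 0.976 ± 0.0108 in WT Ctr and was not called.

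Pdlim5 encodes a scaffold protein of the Z-disc, the border of the sarcomere. Inclusion of its 15-base microexon was 0.82, 0.792, 0.761 and 0.782 in WT Ctr and 0.509, 0.541, 0.618 and 0.565 in P635L Ctr. The groups did not overlap, and the difference of -0.231 was the greatest of the 4 called (edgeR adjusted p = 0.0214). The call was lost without P635L Ctr listed library 1 (edgeR adjusted p = 0.0764), WT Ctr listed library 1 (adjusted p = 0.0985) or WT Ctr listed library 4 (adjusted p = 0.066), with differences of -0.214, -0.22 and -0.233. In P635L Tnpo3 inclusion was 0.81, 0.763, 0.831 and 0.681, which overlaps WT Ctr and exceeds each P635L Ctr library. That difference between the mutant groups was 0.213 (edgeR unadjusted p = 5.45e-04, adjusted p = 0.28). The neighbouring 18-base microexon of Pdlim5 was at 0.999 or more and the 17-base one at 0.0145 or less on average in every group, both in their most-read event. Spliced directly to the exon upstream of the 15-base microexon, the 18-base one averaged 0.872 ± 0.0298 in WT Ctr and 0.903 ± 0.0065 in P635L Ctr (SD, n = 4). The 15-base microexon, spliced past the 18-base one in an event of 1570 reads, averaged 0.482 ± 0.12 in WT Ctr and 0.4 ± 0.041 in P635L Ctr and was not called.

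Myl6 encodes an essential myosin light chain of smooth muscle and nonmuscle cells. Its 20-base microexon was included at 0.071, 0.085, 0.092 and 0.087 in WT Ctr and at 0.183, 0.223, 0.198 and 0.2 in P635L Ctr. The mean rose by 0.117 with no overlap (edgeR adjusted p = 0.00984). P635L Tnpo3 stood at 0.104, 0.087, 0.104 and 0.098, near WT Ctr and below every P635L Ctr library. The difference of -0.103 between the mutant groups had an edgeR unadjusted p of 2.72e-04 and an adjusted p of 0.202. Myl6 expression did not pass the gene test (281 ± 41.6 CPM in WT Ctr, 322 ± 51.9 in P635L Ctr, SD, n = 4, edgeR adjusted p = 0.36). Other events of this microexon had 814 reads or fewer each, and none was called. The higher fibroblast marker level in P635L Ctr moved with this result, and its part in it was not tested.

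**Figure D4:**
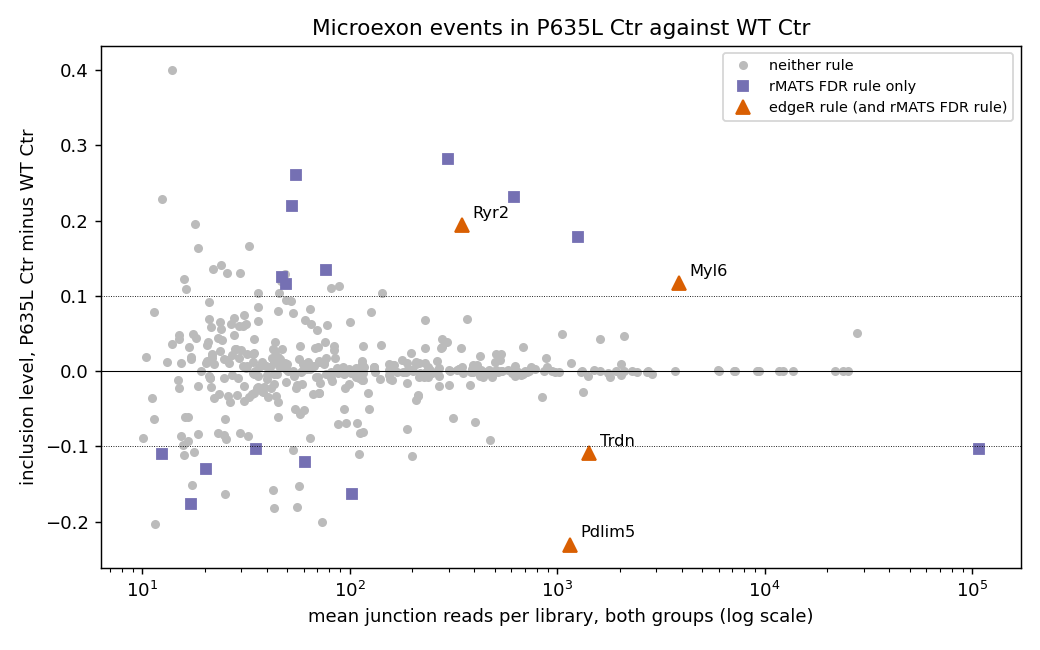
Difference in mean inclusion level between P635L Ctr and WT Ctr (vertical axis) against mean junction reads per library (horizontal axis, log scale) for the 410 microexon events. Orange triangles are the 4 events called by edgeR, purple squares the 15 that passed the rMATS FDR rule alone, and dotted lines mark a difference of 0.1. Grey events spread widest at low read numbers.

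Among the genes listed as RBM20 targets, 15 of 45 held a reported microexon, 27 in all. In the comparison of P635L Ctr with WT Ctr, 3 of 36 events in 12 of these genes were called, those of Ryr2, Trdn and Pdlim5, beside 0.161% of all events. Their median difference was 0, with a median size of 0.0126 against 0.0132 over all events. The list was chosen with results of these data known, so its count is no independent evidence. Of the 27 microexons, 12 were at 0.9 or more and 3 at 0.1 or less in every group that measured them, taking the most-read event of each.

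Tnnt2 encodes cardiac troponin T of the thin filament and held the microexon with the most reads. Its 9-base microexon was covered by 1546051 junction reads in all. Inclusion was 0.826, 0.824, 0.835 and 0.803 in WT Ctr and 0.7, 0.704, 0.757 and 0.711 in P635L Ctr. The groups did not overlap, and the difference was -0.104, but edgeR's adjusted p was 0.336 (unadjusted p = 0.00266). The FDR in the authors' deposited table was 7.82e-14. Without P635L Ctr listed library 3 edgeR's adjusted p was 0.00954. P635L Tnpo3 was at 0.865, 0.847, 0.878 and 0.808, above each P635L Ctr library. The 12-base microexon of Tnnt2 was at 0.186, 0.193, 0.197 and 0.203 in WT Ctr and at 0.233, 0.248, 0.257 and 0.242 in P635L Ctr, a difference of 0.0503 that edgeR did not call (adjusted p = 0.678). The 11-base microexon just before it was at 0.999 or more in every library in its most-read event. In its other events, with fewer reads, the 12-base microexon had means of 0.971 or more.

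Ldb3 encodes a protein of the Z-disc that binds alpha-actinin. Its 15-base microexon was included at 0.039, 0.011, 0.02 and 0.014 in WT Ctr and at 0.07, 0.071, 0.072 and 0.041 in P635L Ctr. The edgeR adjusted p was 0.0284, but the difference of 0.0425 was under the minimum of 0.1, so it was not called. P635L Tnpo3 stood at 0.031, 0.019, 0.025 and 0.02, within the range of WT Ctr. The 23-base microexon of Ldb3 had mean levels of 0.958 in WT Ctr and 0.97 in P635L Ctr. Its junction reads summed to 1590 in P635L Ctr, 76 in WT Ctr, 48 in WT Tnpo3 and 135 in P635L Tnpo3. That read difference was seen after the fact and was not tested.

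Other microexons in the listed target genes were not called in any comparison. Mef2d, a transcription factor of muscle, had a 21-base microexon at 0.642 ± 0.0459 in WT Ctr and 0.532 ± 0.0889 in P635L Ctr (SD, n = 4), with overlapping libraries. The Mef2d mean in WT Tnpo3 was 0.499 ± 0.153, below that of P635L Ctr. The 24-base microexon of its relative Mef2a had means of 0.401 to 0.538 over the groups. Slc8a1, the sodium-calcium exchanger, included its 15-base microexon at 0.974 or more. Slc38a10, an amino acid transporter, had a 24-base microexon at 0.425 to 0.501. The 12-base microexon of Enah, an actin regulator, was read in the table of the WT groups, with a mean of 0.0143 in WT Tnpo3 and listed at 0 throughout WT Ctr. Dst and Myom1 microexons were at 0.987 or more in each group that measured them. The microexons of Dtna, Lrrfip1 and Ank2 and a 15-base one of Ryr2 had 248 reads or fewer in their most-read event. A less-read event of the 12-base Ank2 microexon, with another neighbouring exon end, averaged 0.032 in P635L Ctr and 0.142 in WT Ctr. It passed the rMATS rule (FDR 0.0267 in the authors' deposited table), and edgeR did not call it.

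Uncalled microexons with high read numbers included those of Uqcrh, a subunit of respiratory complex III, Gpx4, a peroxidase of lipid peroxides, and Tnni3, cardiac troponin I. Their lengths were 21, 25 and 13 bases. Each was listed at 1 in every library that measured it.

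Several microexons passed the rMATS rule alone and are named here after their values were seen. Mars1, methionyl-tRNA synthetase, had a 24-base coding microexon at 0.479, 0.482, 0.481 and 0.447 in WT Ctr and at 0.799, 0.723, 0.744 and 0.751 in P635L Ctr. The groups did not overlap and the difference was 0.282, while edgeR's adjusted p was 0.125. P635L Tnpo3 lay between, at 0.57, 0.61, 0.618 and 0.538. Rps24, a protein of the small ribosomal subunit, had an 18-base microexon at 0.246 ± 0.0192 in WT Ctr, 0.424 ± 0.0676 in P635L Ctr and 0.203 ± 0.0305 in P635L Tnpo3 (SD, n = 4). Its edgeR adjusted p was 0.261 for the mutation and 0.139 between the mutant groups. Neither met the edgeR rule.

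Further microexons passed the rMATS rule at fewer reads. Arhgap23, a protein with a GTPase-activating domain, had a 23-base microexon at 0.355, 0.221, 0.491 and 0.211 in P635L Ctr and at 0, 0.04, 0.182 and 0.014 in WT Ctr (edgeR adjusted p = 0.364). Tmem184b, a membrane protein, had a 21-base microexon at 0.268, 0.183, 0.199 and 0.109 in P635L Ctr, all below the WT Ctr levels of 0.456, 0.329, 0.328 and 0.301. In WT Tnpo3 the Tmem184b microexon was at 0.389, 0.223, 0.216 and 0.126, which overlaps both of those groups. Trappc9, a subunit of a vesicle tethering complex, had a 27-base microexon with a mean of 0.465 ± 0.0421 in P635L Ctr and 0.245 ± 0.13 in WT Ctr (SD, n = 4), and 1 WT Ctr library overlapped. P635L Tnpo3 libraries overlapped those of P635L Ctr in Tmem184b and Trappc9 but not in Arhgap23.

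In the comparison of P635L Tnpo3 with WT Ctr, the groups differ in both genotype and virus. A difference here, or its absence, cannot be assigned to either alone. Of 408 microexon events 0 were called by edgeR, where 0.0346% of all 34636 events were called. An unadjusted p under 0.05 was found for 28 of them, and limma with precision weights also called 0. By the authors' deposited FDR 5 passed, beside 2.11% of all events. These were in Tmed2, Hnrnpc, Csnk1g3, Mars1 and Psma4, named after their values were seen, and 1 was higher and 4 lower than in WT Ctr. Tmed2, a cargo receptor of the secretory pathway, was at 0.675, 0.632, 0.692 and 0.561 against 0.712, 0.798, 0.803 and 0.789 in WT Ctr. Its means in P635L Ctr and WT Tnpo3 were 0.707 and 0.711. For Ryr2 the difference from WT Ctr was 0.0383 with no overlap (edgeR adjusted p = 0.44).

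The comparison of WT Tnpo3 with WT Ctr sets the Tnpo3 virus against the control virus without the mutation. Both groups were injected, so added Tnpo3 and the lack of Cre and green fluorescent protein cannot be told apart. Of 385 microexon events 0 were called by edgeR, as were 0% of all 31883 events. There were 22 microexon events with an unadjusted p under 0.05, and weighted limma called 0. By the authors' deposited FDR 5 passed, all lower in WT Tnpo3, beside 0.928% of all events. Csnk1g3, a casein kinase, was among them at 0.816 ± 0.125 against 0.943 ± 0.0444 (SD, n = 4), and its libraries overlapped. Its means in P635L Ctr and P635L Tnpo3 were 0.8535 and 0.81, so WT Ctr was the highest group. The WT Ctr level rested on 109 inclusion and 5 skipping reads over its libraries. The Ldb3 23-base event at 0.892, 0.853, 0.142 and 0.453 rested on 48 reads over 4 libraries. The 3-base microexon of Clasp2, which binds microtubule ends, was at 0.63, 1, 0.58 and 1 against 1 in each WT Ctr library. It had few reads, on average 19.25 per library in WT Tnpo3 and 24.75 in WT Ctr. In P635L Ctr it was at 0.88, 0.889, 0.876 and 0.941, which passed the rMATS rule against WT Ctr (FDR 8.45e-05 in the authors' deposited table) but was not called by edgeR. Its mean in P635L Tnpo3 was 0.965.

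The comparison of P635L Tnpo3 with P635L Ctr sets the Tnpo3 virus against the control virus in mutants. Of 378 microexon events 0 were called by edgeR, and 0.0239% of all 29305 events. Here 37 microexon events had an unadjusted p under 0.05, and weighted limma called 1, that of Myl6. A difference of at least 0.1 was seen for 47 microexon events, 17 higher and 30 lower, which is 12.4% against 8.39% of all events. In the 4 microexons called for the mutation, the difference between the mutant groups was -0.155 in Ryr2, -0.103 in Myl6, 0.089 in Trdn and 0.213 in Pdlim5. Since both comparisons share the P635L Ctr libraries, an opposite sign is not independent evidence. An interaction test asked, over all 16 libraries, whether the difference between Tnpo3 and control virus depends on genotype. It called 0 of 338 microexon events and 0.0118% of all 25400 events (23 microexon events at an unadjusted p under 0.05, edgeR). For Ryr2 this interaction was -2.9 ± 0.956 (SE) in log2 odds of inclusion, with an unadjusted p of 0.0058 and an adjusted p of 0.872 by edgeR.

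Among other lists of host genes, events of channels and calcium handling had 2 calls of 13 in P635L Ctr, both already given, and those of the sarcomere and Z-disc had 1 of 31. With 0.161% of all events called, lists this short would seldom hold a call, and a count of 0 says little. Genes of cytoskeleton and adhesion had 0 of 29, those of membrane traffic and GTPase signalling 0 of 12, and those of transcription and RNA 0 of 7. In the other 3 comparisons each of these lists had 0. These lists were also made with earlier results known.

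Host gene expression was tested with edgeR over all 16 libraries. In P635L Ctr against WT Ctr 45 of 307 host genes of microexons changed, 24 upward and 21 downward, or 14.7% where 14.2% of all genes did. In P635L Tnpo3 against WT Ctr 11 of 312 changed (4 to 16 with 1 library left out), beside 3.07% of all genes, and in WT Tnpo3 against WT Ctr 0 of 294, beside 0.00536%. At an unadjusted p under 0.05 the last comparison had 8 host genes, and DESeq2 called 0. In P635L Tnpo3 against P635L Ctr 15 of 290 changed, 5 upward and 10 downward, beside 3.88% of all genes, and 5 to 22 changed with 1 library left out. The lowest counts came without P635L Tnpo3 replicate 4 (4, against WT Ctr) and without P635L Ctr replicate 4 or P635L Tnpo3 replicate 1 or 2 (5, between the mutant groups). Of the 19 host genes of the events named by rule, Enah, Lrrfip1 and Myom1 rose and Trdn, Tnni3 and Ank2 fell in P635L Ctr. Enah stood at 98.6 ± 10.7 CPM in WT Ctr, 259 ± 12.4 in P635L Ctr and 129 ± 31.2 in P635L Tnpo3 (SD, n = 4). Between the mutant groups Trdn was higher and Enah lower in P635L Tnpo3.

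Of 39 genes listed as regulators of microexons, 34 had enough counts to test. In P635L Ctr 4 of the 34 were lower and 0 higher than in WT Ctr by edgeR, where 14.2% of all genes changed, so the count is near the background and is no result about regulators as a group. The 4 are given as single genes. Srrm4, the activator of microexons in neurons, fell from 18 ± 4.04 to 6.85 ± 2.16 CPM (SD, n = 4; log2 change -1.40 ± 0.24 SE, edgeR adjusted p = 6.9e-04). Rbfox1, a splicing factor of muscle and neurons, fell from 18.5 ± 5.91 to 8.14 ± 1.17 CPM (log2 change -1.19 ± 0.23 SE, edgeR adjusted p = 0.0017). Khdrbs3, an RNA-binding protein of the STAR family, fell from 70.3 ± 10.1 to 37.4 ± 1.99 CPM, and Celf1, a splicing factor of the developing heart, from 70.5 ± 8.65 to 49.8 ± 2.22 CPM. In P635L Tnpo3 Srrm4 was at 8.43 ± 1.84 and Rbfox1 at 9.55 ± 3.02 CPM, both still lower than WT Ctr by edgeR. No regulator in the list passed between the mutant groups or between the WT groups. The neuron markers summed to 12.2 to 19.6 CPM over all 16 libraries, of which 2 of 5 had enough counts to test and 0 passed in any comparison. Stmn2 made up most of these sums, at 12.7 to 15.1 CPM on average by group, while Snap25, Syt1 and Elavl3 had too few counts to test. The sums therefore say little about neuron content. Ptbp1, a repressor of microexons outside neurons, was at 35.7 to 38.9 CPM on average in all groups.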

How the data were processed

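Gene counts were made by the authors with STAR 2.7.9a and featureCounts 2.0.6 on GRCm39, per the submitters' processing notes, and deposited as raw counts. The authors' deposited rMATS tables give, per splicing event, inclusion and skipping reads of 4 libraries per group in an order that is not stated, inclusion levels, and a p-value with its FDR. The rMATS version and counting mode are not given in the sources used here. Libraries in those lists are called listed libraries and were matched to no mouse.

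Inclusion and skipping reads of all 5 event types were tested with edgeR 4.0.16 (quasi-likelihood, R 4.3.3), with Benjamini-Hochberg adjustment over all events with a mean of 10 reads in both groups. A call needed an adjusted p under 0.05 and a difference of at least 0.1. Gene counts were tested with edgeR and, as an alternative, DESeq2 1.42.0. The edgeR p-values set a difference against the spread between mice of the same group. That spread was estimated for each event or gene partly from all the others tested, so it also depends on which were fitted together. Single values were also compared by an exact two-sided permutation test over 70 assignments.

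Length and the read minimum alone decided which microexons entered, but that rule and the gene lists were set with earlier results of these data known. Named are called microexons, those in listed RBM20 target genes and the 5 uncalled ones with most reads, 31 events in all, and 16 more after their values were seen. Another that passed the rMATS rule counts in all totals but is not reported here. After the first counts were seen, a quasi-binomial test and then limma 3.58.1 with precision weights were added. On data simulated for P635L Ctr against WT Ctr with 34810 events, edgeR found 64% of changes of 0.2 and 95% of changes of 0.4. Of its calls 0.625% were false. Weighted limma found 53% and 91% with 3.36% false. Limma without weights (12.7% false calls) and the quasi-binomial test (46%) failed that check, so their counts are given but not relied on. The simulation gave all events of all types the same spread beyond counting error. It planted only rises from low or intermediate levels and scored the adjusted p without the minimum difference. These shares need not hold for the real events, where edgeR did not call Mars1 at a difference of 0.282. Deviations of same-numbered gene libraries from their group means correlated at -0.228 to 0.552. Between WT Tnpo3 and WT Ctr the correlations were all positive, at 0.096 to 0.552. Differently numbered libraries were not compared, so whether replicate numbers pair the gene libraries was not settled. The splicing lists carry no replicate numbers. Of 410 microexons, 23 matched no transcript and have no sequence or annotation here.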

Additional observations from a re-analysis of the deposited data

Results flagged for a closer look

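In 25 of 172 groups of 4 libraries over all named microexons, 1 library stood apart from the other 3 by more than Dixon's 95% critical value. Chance gives about 1 group in 20 for values that vary freely, but that rate does not hold for levels near 0 or 1, where a single read can set 1 library apart, so the number is a description only. At intermediate or low levels these were Ryr2 (24 bases) at 0.1 in P635L Tnpo3 listed library 4, above 0.027 to 0.033 in the others, and Ldb3 (15 bases) at 0.041 in a P635L Ctr library. In WT Ctr they were 0.712 for Tmed2, 0.447 for Mars1 and 0.572 for Axl. In P635L Ctr they were 0.611 for Map3k5 and 0.701 for Hnrnpm, in P635L Tnpo3 0.429 for Dctn1 and 0.445 for Axl, and in WT Tnpo3 0.791 for Trim68 and 0.219 for Dtna. Where the other 3 libraries were listed at 1, WT Ctr libraries stood at 0.832 for Ldb3 (23 bases), 0.972 for Map3k5, 0.949 for Hnrnpm, and 0.994 and 0.996 for 27-base microexons of Trdn. The values for Map3k5 and Hnrnpm in WT Ctr each rest on 1 skipping read. In the other groups such libraries stood at 0.986 for Slc8a1 (15 bases), 0.906 for Ryr2 (15 bases), 0.994 for Dst, 0.996 for Trdn (27 bases), 0.999 for Tnnt2 (11 bases), and 0.999, 0.997 and 0.998 for Pdlim5 (18 bases). Further such libraries stood at 0.611 for Map3k5 in P635L Ctr, 0.445 for Axl in P635L Tnpo3 and 0.219 for Dtna in WT Tnpo3. Enah stood at 0.057 in 1 WT Tnpo3 library and was listed at 0 in the other 3. The microexons of Dtna, Axl, Hnrnpm and Map3k5 had 119, 208, 310 and 371 junction reads over all libraries.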

How the results depend on the processing

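The count of 4 microexon events called in P635L Ctr against WT Ctr was 19 with the authors' deposited rMATS FDR, 7 with weighted limma and 9 with the quasi-binomial test, the last 2 added after seeing the data. It was 1 with limma without weights, 1 with skipped exon events only, 1 with a difference of at least 0.2 and 1 for exons up to 15 bases, and 3 to 5 with 1 library left out. With skipped exon events only, the edgeR adjusted p of Trdn, Pdlim5 and Myl6 was 0.654. In P635L Tnpo3 against WT Ctr the 0 calls became 5 with the rMATS FDR, 1 with no minimum difference and 2 with the quasi-binomial test. In WT Tnpo3 against WT Ctr they became 5 with the rMATS FDR. In P635L Tnpo3 against P635L Ctr they became 1 with weighted limma, 8 with the quasi-binomial test and 0 to 1 with 1 library left out. Host genes changed in P635L Tnpo3 against WT Ctr, 11, were 7 without a filter on low counts, 19 with DESeq2 and 4 to 16 with 1 library left out. The 15 in P635L Tnpo3 against P635L Ctr were 26 with DESeq2 and 5 to 22 with 1 library left out, and the 45 in P635L Ctr against WT Ctr ranged from 33 to 57. With a replicate block the host gene counts were 45, 8, 0 and 12 in the order P635L Ctr, P635L Tnpo3 and WT Tnpo3 against WT Ctr, then P635L Tnpo3 against P635L Ctr. No paired analysis was possible because the splicing lists carry no replicate numbers, so this block covers gene counts only. Single events that crossed the threshold without 1 library are given with their values beside the results (Pdlim5, Ryr2 and Tnnt2). The cause of these changes was not tested. Few reads limit the microexons of low-expressed genes.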
